A study of Mus musculus with 23 samples.

Results

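The genes described here were 10 mouse genes of alarmin and myeloid signalling: *S100a8*, *S100a9*, *Spp1*, *Il1b*, *Cxcl1*, *Cxcl2*, *Cxcr2*, *Ccl2*, *Lcn2* and *Arg1*. They were found by gene name among the 24813 genes of the array, as 13 of its 56605 probes, and 12 of these probes, covering 9 of the 10 genes, were bright enough to test. The data were 23 single-colour Agilent profiles of the ileum, 1 per mouse, from male mice on the C57BL/6J background. WT mice were purchased at 6 weeks of age. *Pxr*-/- mice, knockouts of the pregnane X receptor (PXR, gene *Nr1i2*), came from a colony kept in house for 10 years, so that genotype and origin cannot be told apart. Treated mice received PCN (pregnenolone 16α-carbonitrile), a steroid that activates rodent PXR, into the abdomen in corn oil at 100 mg/kg on each of 4 days. CONT mice received the oil alone, and all tissue was taken 6 h after the last injection, at zeitgeber time 6, from animals with free access to food, which the study describes as semi-fasted at that hour. WT CONT, WT PCN, *Pxr*-/- CONT and *Pxr*-/- PCN are represented by 6, 5, 6 and 6 arrays, washed in 2 batches that each held all groups (3, 2, 3 and 3 arrays in batch 1, and 3 of each in batch 2).

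S100A8 and S100A9 form calprotectin, a calcium- and zinc-binding alarmin stored in neutrophils and monocytes and used as a marker of gut inflammation. Osteopontin (*Spp1*) is a secreted integrin ligand made by macrophages, among other cells, and interleukin 1 beta (*Il1b*) is an early cytokine of the inflammasome. CXCL1 and CXCL2 attract neutrophils through the receptor CXCR2, CCL2 attracts monocytes, lipocalin 2 (*Lcn2*) withholds iron from bacteria by binding their siderophores, and arginase 1 (*Arg1*) is an enzyme of alternatively activated macrophages. In a piece of whole ileum, more cells of a type and more RNA per cell cannot be told apart.

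Median spot brightness ranged from 74 to 106.5 linear units over a median background of 19 to 28.5, and 62.7 to 68.8% of the spots were well above background. The mean log2 signal of 8 ileal enterocyte genes lay between 14.83 and 15.51 on every array. The probe of *Nr1i2* did not separate the genotypes: it read 12.13 ± 0.23 (SD, n = 6) in WT CONT and 11.72 ± 0.30 (n = 6) in *Pxr*-/- CONT (difference -0.41, limma adjusted p = 0.336). It therefore does not check the genotype labels.

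The 10 genes were listed with earlier results of these arrays known, and in particular their PCN differences in the WT and *Pxr*-/- mice. Those differences are therefore given as a description, with no test. A value is a log2 signal after quantile normalization, a difference is the PCN mean minus the CONT mean on that scale with wash batch as a term, and its error is the standard error (SE). A gene is called when its adjusted p is at most 0.05 and its fold change above 1.5.

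All 9 genes that could be measured were higher with PCN in both genotypes. By the call rule, 4 of the 9 were called higher in WT (*S100a8*, *S100a9*, *Ccl2* and *Lcn2*), and 6 of the 9 in *Pxr*-/- (the same 4 with *Spp1* and *Arg1*). Over all 17727 genes tested, 0.931% were called higher with PCN in WT and 1.2% in *Pxr*-/- mice. Without WT PCN replicate 2 the WT count was 2 of 9, and within wash batch 1 and batch 2 alone it was 1 and 0 in each genotype. As the genes were chosen on these differences, nothing is read from that comparison. The test of the difference between the PCN effects, which the same choice of genes limits, called 0 of the 9, against 0.118% of all genes.

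**Figure D1:**
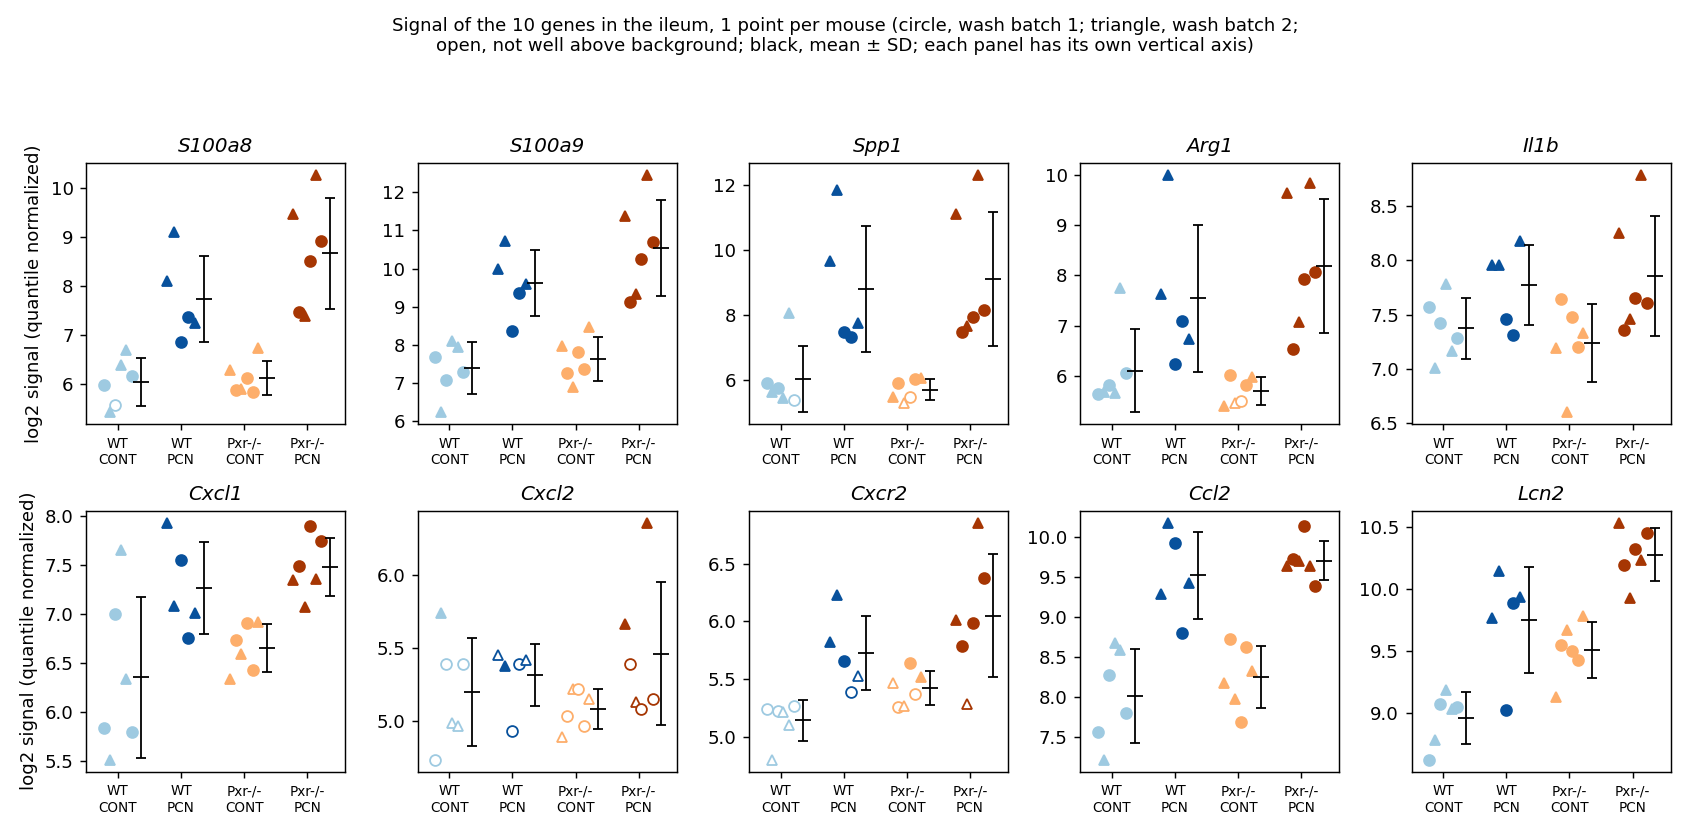
Log2 signal of the 10 genes on the 23 arrays by group, with the mean ± SD in black beside the points, and each panel on its own vertical axis. *S100a8* and *S100a9* lie higher in PCN than in CONT arrays of the same genotype without overlap, *Spp1* and *Arg1* spread over several log2 units within the PCN groups, and *Cxcl2* is not well above background on most arrays.

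The alarmins showed large PCN differences in both genotypes. *S100a8* (probe A_51_P256827, chromosome 3, 90473778 to 90473837, mm9) read from 5.42 to 6.69 in WT CONT, with a median of 6.07 and 5 of 6 arrays well above background. The 5 WT PCN arrays read 6.85, 7.24, 7.37, 8.10 and 9.10. No WT PCN array lay within the CONT range, and the difference was 1.64 (SE 0.398), a fold change of 3.11. The WT call of *S100a8* was held in 9 of 14 alternative settings and in 11 of 23 fits that left out an array. The signal in *Pxr*-/- CONT ran from 5.83 to 6.73, with a median of 6.00, and in *Pxr*-/- PCN from 7.38 to 10.26, with a median of 8.71. Again the groups did not overlap, and the difference was 2.54 (SE 0.378), a fold change of 5.82.

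*S100a9* (A_55_P1998471, chromosome 3, 90496573 to 90496632), the partner of *S100a8* in the calprotectin dimer and its neighbour on the chromosome, followed it closely. It ran from 6.24 to 8.10 in WT CONT (median 7.49), and the WT PCN arrays read 8.37, 9.36, 9.60, 9.99 and 10.73. The difference was 2.16 (SE 0.460), or 4.46-fold, without overlap. For *Pxr*-/- mice it ran from 6.88 to 8.47 with oil (median 7.59) and from 9.12 to 12.46 with PCN (median 10.48), a difference of 2.91 (SE 0.438), or 7.51-fold, also without overlap. After removal of group and wash batch means, the deviations of *S100a8* and *S100a9* had a Pearson r of 0.936 over the 23 arrays, which share RNA and array. This is a description of these arrays.

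*Spp1* (A_51_P358765, chromosome 5, 104869788 to 104869847) had the largest mean difference of the 9 genes and the widest spread. In WT CONT, 5 arrays lay between 5.37 and 5.88 and replicate 5 read 8.06, with 5 of 6 arrays well above background. The WT PCN arrays read 7.31, 7.47, 7.74, 9.65 and 11.83, so that the groups overlapped through that CONT array, with 2 of the 5 PCN arrays above it. The WT difference was 2.65 (SE 0.739), or 6.28-fold. With oil, *Pxr*-/- mice ran from 5.27 to 6.04 (median 5.68), where 4 of 6 arrays were well above background. With PCN, 4 of their arrays lay between 7.46 and 8.15, while replicates 1 and 5 read 11.11 and 12.31. All 6 were above every *Pxr*-/- CONT array, and the difference was 3.41 (SE 0.703), or 10.6-fold.

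*Arg1* (A_51_P303160, chromosome 10, 24636194 to 24636253) split in the same way. In WT CONT it read 5.64 to 6.05 on 5 arrays and 7.75 on replicate 5, the array that was also highest for *Spp1*. The WT PCN arrays read 6.24, 6.74, 7.10, 7.62 and 10.00, and only replicate 2, at 10.00, lay above all CONT arrays. The WT difference was 1.36 (SE 0.550). In *Pxr*-/- mice *Arg1* ran from 5.40 to 6.02 with oil (median 5.65) and from 6.53 to 9.84 with PCN (median 8.0), a difference of 2.48 (SE 0.523) without overlap. With oil, 4 of these 6 arrays were well above background. The residuals of *Arg1* and *Spp1* had an r of 0.930 over the 23 arrays. The spread was unequal between groups (SD of *Spp1* 2.07 in *Pxr*-/- PCN and 0.33 in *Pxr*-/- CONT). Arrays far from their group mean therefore weigh most in this r.

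*Ccl2* and *Lcn2* had smaller SEs than the 4 genes above. *Ccl2* (A_51_P286737, chromosome 11, 81850650 to 81850709) ran from 7.22 to 8.68 in WT CONT (median 8.04), and the WT PCN arrays read 8.80, 9.29, 9.43, 9.92 and 10.18. In *Pxr*-/- mice it ran from 7.70 to 8.72 with oil (median 8.25) and from 9.38 to 10.13 with PCN (median 9.67). The groups did not overlap in either genotype, and the differences were 1.5 (SE 0.259) in WT and 1.45 (SE 0.246) in *Pxr*-/- mice, near 2.82- and 2.73-fold.

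*Lcn2* had 2 probes. On the brighter one (A_55_P2070869, chromosome 2, 32240199 to 32240258) WT CONT ran from 8.63 to 9.19 (median 9.04), and the WT PCN arrays read 9.03, 9.76, 9.89, 9.93 and 10.14, all but replicate 3 above the CONT range. *Pxr*-/- CONT ran from 9.13 to 9.79 (median 9.53) and *Pxr*-/- PCN from 9.93 to 10.53 (median 10.27), without overlap. The differences were 0.78 (SE 0.156) in WT and 0.76 (SE 0.149) in *Pxr*-/- mice. The dimmer probe (A_51_P510156, same gene, 32241037 to 32241281) differed by 0.44 (SE 0.175) in WT and by 0.70 (SE 0.166) in *Pxr*-/- mice, and was called in *Pxr*-/- mice alone.

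The interleukin and the neutrophil chemokine differed less than the alarmins. *Cxcl1* (A_55_P2811679, chromosome 5, 91322080 to 91322139) ran from 5.51 to 7.65 in WT CONT (median 6.08), and the WT PCN arrays read 6.75, 7.01, 7.08, 7.55 and 7.93. The WT groups overlapped, with a difference of 0.92 (SE 0.292). In *Pxr*-/- mice it ran from 6.33 to 6.92 with oil and from 7.07 to 7.89 with PCN, without overlap, a difference of 0.83 (SE 0.278).

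*Il1b* was seen by 3 probes. The brightest (A_51_P212782, chromosome 2, 129190347 to 129190406) ran from 7.01 to 7.78 in WT CONT, against 7.32, 7.46, 7.95, 7.95 and 8.17 in WT PCN, and from 6.60 to 7.64 in *Pxr*-/- CONT, against 7.36 to 8.78 in *Pxr*-/- PCN. All groups overlapped, and the differences were 0.38 (SE 0.224) and 0.61 (SE 0.213). The other probes (A_66_P114500 and A_55_P2720183), which were well above background on 18 and 9 of the 23 arrays, differed by 0.24 and 0.08 in WT and by 0.38 and 0.15 in *Pxr*-/- mice.

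*Cxcr2* and *Cxcl2* were close to background. The *Cxcr2* probe (A_52_P559975, chromosome 1, 74206886 to 74206945) was well above background on 0 of 6 arrays in WT CONT and 3 of 5 with PCN, and in *Pxr*-/- mice on 2 of 6 arrays without PCN and 5 of 6 with it. Its WT PCN values were 5.39, 5.53, 5.66, 5.82 and 6.23. Their mean was at least 1.43-fold higher than the mean WT CONT floor, a bound that does not hold for each array. The floor took on each CONT array the larger of the probe's own signal and the lowest signal well above background. The measured group means were 5.73 and 5.14. In *Pxr*-/- mice *Cxcr2* differed by 0.63 (SE 0.182), and 5 of the 6 PCN arrays exceeded every CONT array. The scanner's processed signal gave larger log2 differences for this gene, 1.75 in WT and 1.35 in *Pxr*-/- mice. The values used elsewhere had no background subtracted, and the cause was not tested. The *Cxcl2* probe (A_51_P217463, chromosome 5, 91334534 to 91334593) was well above background on 4 of 23 arrays (1, 1, 0 and 2 of the groups in the order above) and was not tested. Its linear median signal was between 26 and 52 in WT CONT, between 29 and 46 in WT PCN, between 30 and 35 in *Pxr*-/- CONT and between 35 and 82 in *Pxr*-/- PCN.

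The table the authors deposited, which does not list the *Cxcl2* probe, gave nearly the same differences. Over the 9 genes and both genotypes, 18 differences in all, none moved by more than 0.0215. In that table the wash batch had been removed, and single values were moved with it: *Spp1* lay 0.72 higher on average on batch 1 arrays and 0.65 lower on batch 2 arrays than in the values used here.

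**Figure D2:**
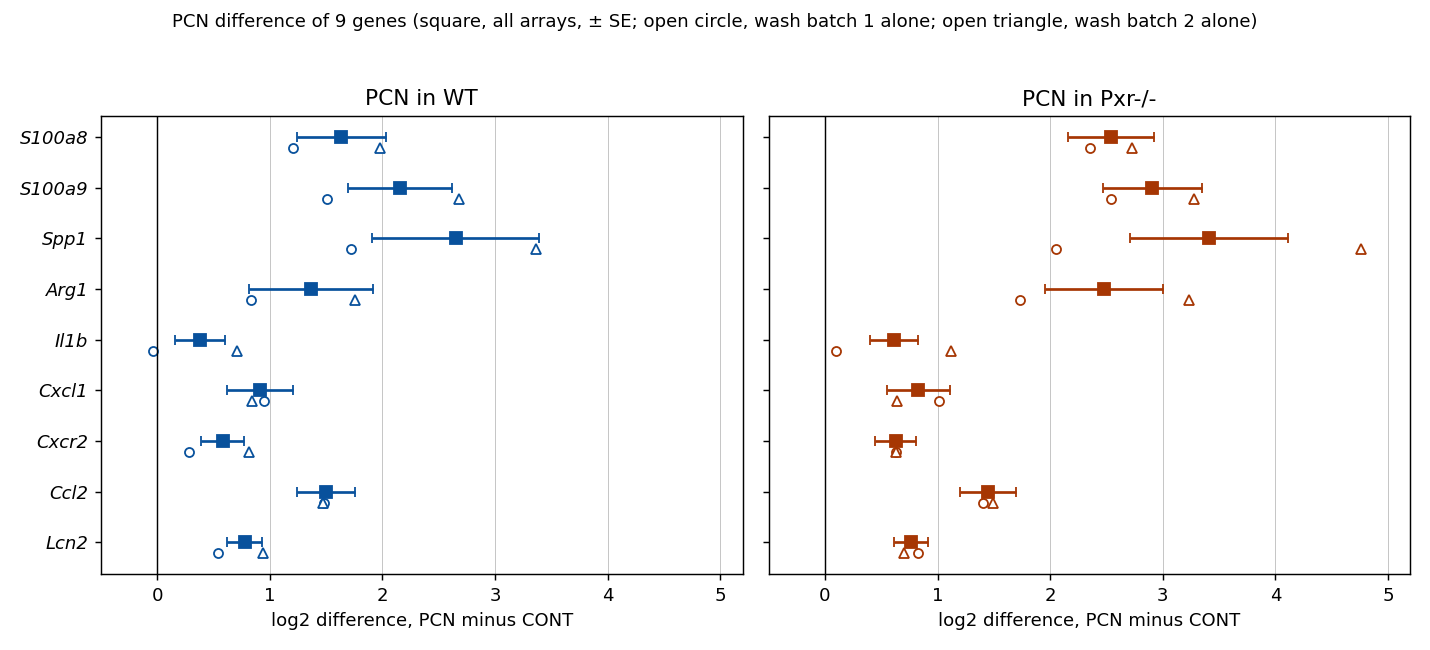
PCN minus CONT difference of the 9 measured genes in WT (left) and *Pxr*-/- mice (right) on the log2 scale, for all arrays with its SE and for each wash batch alone. *Spp1* has a larger difference in batch 2 than in batch 1 in both genotypes (3.36 against 1.72, and 4.76 against 2.05), while the *Ccl2* values of the batches lie close together.

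Within wash batches the picture varied by gene. For *Ccl2* the difference was 1.48 in batch 1 and 1.47 in batch 2 in WT, and 1.40 and 1.5 in *Pxr*-/- mice. For *S100a9* it was 1.51 and 2.68 in WT and 2.54 and 3.28 in *Pxr*-/- mice, and for *S100a8* 1.2 and 1.98, and 2.35 and 2.73. *Spp1* differed by 1.72 (SE 0.227) in batch 1 and by 3.36 (SE 1.17) in batch 2 in WT, and by 2.05 (SE 0.203) and 4.76 (SE 1.17) in *Pxr*-/- mice.

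The same held for *Arg1*, at 0.83 and 1.76 in WT and 1.73 and 3.23 in *Pxr*-/- mice. *Il1b* differed by -0.04 and 0.71 in WT and by 0.10 and 1.12 in *Pxr*-/- mice, so that in batch 1 its difference was below its SE in both genotypes. *Lcn2* differed by 0.54 and 0.94 in WT and by 0.83 and 0.70 in *Pxr*-/- mice. *Cxcl1* differed by 0.94 and 0.84, and 1.02 and 0.64, and *Cxcr2* by 0.28 and 0.82, and 0.63 and 0.63. The WT values of *Cxcr2* are measured differences from CONT arrays that were not well above background. Each batch held 2 or 3 arrays per group, and the difference between batches was not tested.

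The PCN effect was then compared between the genotypes. The genes were chosen with both effects known, so this comparison cannot decide whether the response needed PXR. For *Ccl2* the effect in WT minus that in *Pxr*-/- mice was 0.05 (95% interval -0.69 to 0.79), for *Lcn2* 0.01 (-0.43 to 0.46) and for *Cxcl1* 0.08 (-0.75 to 0.92). For *Cxcr2*, no WT CONT array was well above background, so its measured WT difference is at best a lower bound. Its difference of effects is therefore not given. The effect was larger without PXR, in mean only, for *Arg1* (-1.12, -2.69 to 0.46), *S100a8* (-0.90, -2.04 to 0.23), *Spp1* (-0.76, -2.87 to 1.36), *S100a9* (-0.75, -2.07 to 0.57) and *Il1b* (-0.23, -0.87 to 0.41). None of these 8 differences passed the test (limma, adjusted p = 0.999 for each, over all probes), and 0 had an unadjusted p under 0.05. The intervals leave room for differences of more than 2-fold in either direction for *Spp1* alone, and of more than 2-fold toward the *Pxr*-/- mice for *S100a8*, *S100a9*, *Spp1* and *Arg1*.

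The genotype itself was compared without and with PCN. None of the 9 genes was called in either comparison, against 0.214% and 0.542% of all genes. Without PCN, the differences (*Pxr*-/- minus WT) ran from -0.40 for *Arg1* to 0.55 for *Lcn2*. *Lcn2* was the member with the clearest shift: 5 of 6 *Pxr*-/- CONT arrays lay above all WT CONT arrays (95% interval 0.24 to 0.86, adjusted p = 0.153), and 5 of 6 *Pxr*-/- PCN arrays above all WT PCN arrays (0.54, 0.21 to 0.86, adjusted p = 0.194).

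With PCN, *S100a8* was higher in *Pxr*-/- mice by 0.99 (0.17 to 1.82, adjusted p = 0.534) and *S100a9* by 0.99 (0.03 to 1.94, adjusted p = 0.680), with 2 of 6 *Pxr*-/- arrays above all WT arrays for each. Neither passed the test. These comparisons share arrays with the PCN comparisons.

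**Figure D3:**
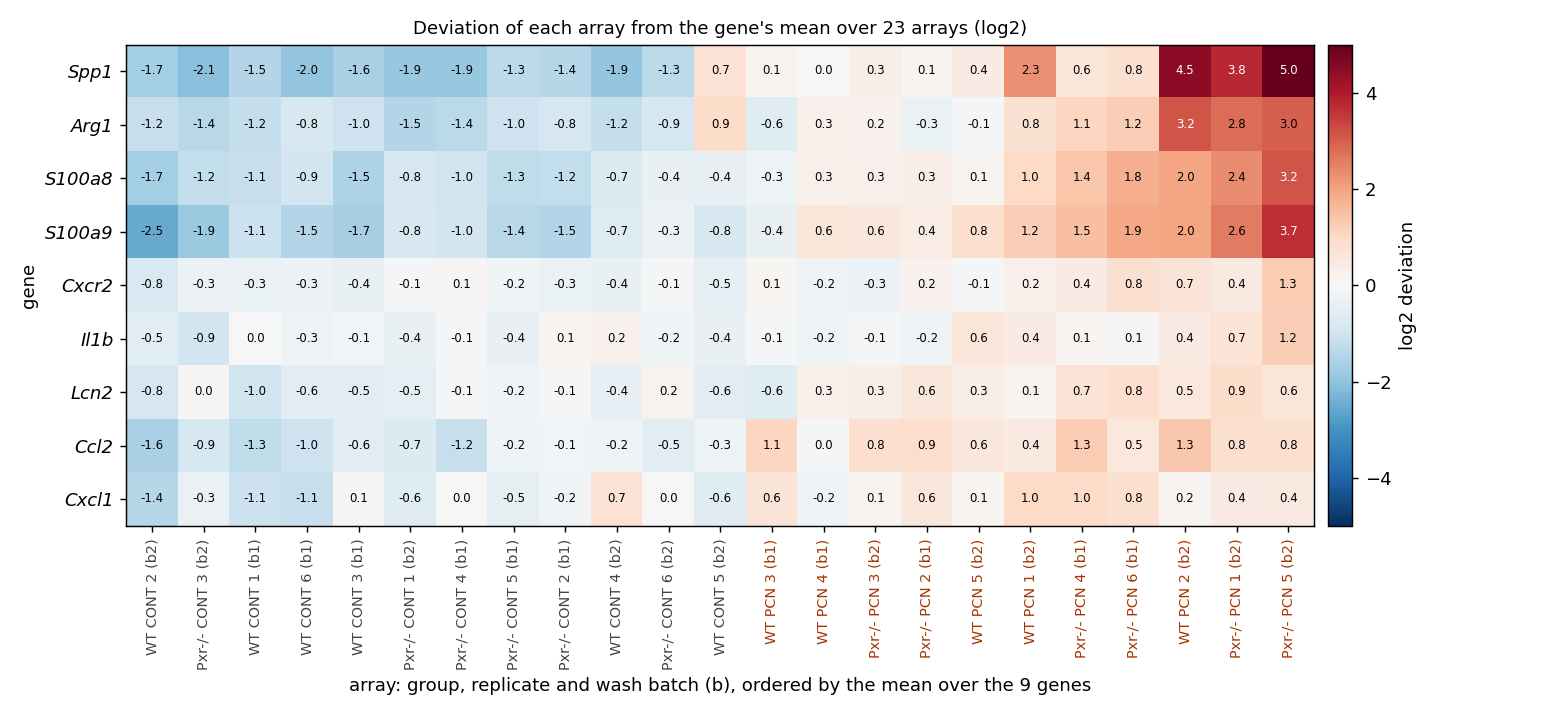
Deviation of each of the 23 arrays (columns) from each gene's mean over all arrays (rows), in log2 units, with columns ordered by the mean over the 9 genes and labelled by group, replicate and wash batch. The 11 PCN arrays stand to the right of the 12 CONT arrays, and *Spp1*, *Arg1*, *S100a8* and *S100a9* set the order at the right end.

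The order of the arrays across genes was examined through the mean deviation of each array over the 9 genes. The 12 CONT arrays had means from -1.36 to -0.21, and the 11 PCN arrays from -0.00 to 2.13, so the treatments did not overlap on this mean, which follows from the choice of the genes. The 3 highest arrays were *Pxr*-/- PCN replicate 5 (2.13), *Pxr*-/- PCN replicate 1 (1.64) and WT PCN replicate 2 (1.63), all from wash batch 2. The lowest PCN arrays were WT PCN replicates 3 (-0.00) and 4 (0.08), both from batch 1. These means keep the wash batch in. With it removed, the same arrays were highest. The lowest were then *Pxr*-/- PCN replicate 3 (0.06) and WT PCN replicate 5 (0.12), both from batch 2, with WT PCN replicates 3 and 4 at 0.20 and 0.29.

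WT PCN replicate 2 was the highest array of its group for 7 of the 9 genes, all but *Il1b* and *Cxcl1*. *Pxr*-/- PCN replicate 5 was the highest of its group for 6 genes, while replicate 4 was highest for *Cxcl1* and *Ccl2* and replicate 1 for *Lcn2*. Among the oil-treated mice, WT CONT replicate 5 was highest for *Spp1*, *Arg1* and *S100a8*, and WT CONT replicate 2 was lowest for 6 genes.

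Within groups, the genes did not all follow the same arrays. The residuals of *S100a9* had an r of 0.840 with *Cxcr2*, 0.753 with *Il1b*, 0.737 with *Arg1* and 0.729 with *Spp1*, but of 0.443 with *Lcn2*, 0.225 with *Cxcl1* and 0.163 with *Ccl2*. Those of *Spp1* had an r of -0.01 with *Cxcl1* and 0.279 with *Ccl2*, and *Ccl2* and *Cxcl1* had one of 0.510 with each other. WT PCN replicate 2, among the 3 highest arrays for *Spp1*, *Arg1* and both alarmins, was also the highest of all 23 for *Ccl2*, while *Cxcl1* was highest on WT PCN replicate 1. The points share array and wash, and no test was made.

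The genes outside the list whose residuals were most like those of 4 members were named in the same way, out of 17701 genes. As above, arrays far from their group mean weigh most in these r values. For *S100a9* these were *Fpr2* (r 0.799), *Cd300ld* (0.796), *Ccl9* (0.780), *F10* (0.779) and *Trem2* (0.777). For *Spp1* they were *F10* (0.961), *Clec4d* (0.938), *F7* (0.927), *Clec4e* (0.927) and *Chil3* (0.913), where *F10* and *F7* encode coagulation factors, *Clec4d* and *Clec4e* are lectin receptors of myeloid cells, and *Chil3* is a chitinase-like protein of macrophages. For *Ccl2* they were *Nfkbie* (0.789), *Ccl7* (0.747), *Slc15a3* (0.730), *Csf2rb2* (0.725) and *Cd53* (0.717), and for *Lcn2* the lower values of *Col4a1* (0.707), *Mafk* (0.694), *Mogat1* (0.688), *Slc30a10* (0.680) and *Col4a2* (0.672).

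Of these, *Trem2*, a lipid receptor of macrophages, rose in both genotypes, by 1.21 (SE 0.275, adjusted p = 0.0254) in WT and by 1.68 (SE 0.261, adjusted p = 0.0014) in *Pxr*-/- mice (limma). *Clec4e* and *F10* rose in *Pxr*-/- mice, by 2.01 (adjusted p = 0.013) and 1.55 (adjusted p = 0.0331), and for both genes the PCN and CONT arrays of these mice did not overlap. Their WT differences, 1.1 and 0.99, did not pass. *Csf2rb2* rose by 0.69 in WT (limma adjusted p = 0.00141) and by 0.57 in *Pxr*-/- mice, below the fold threshold. Not all of the genes named by likeness rose. *Mafk* differed by -0.03 in WT and -0.02 in *Pxr*-/- mice, *Mogat1* by -0.23 and 0.06, and *Slc30a10* by 0.90 and -0.78. None of these passed.

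The promoters of the members were read to show what sequence lies before genes that moved together and genes that did not. RefSeq windows of 250 bases before the start site (GRCm38.p6) were matched for 8 of the 10 members, in 9 windows, and there was no entry for *Ccl2* and *Arg1*. Both strands were searched for the NF-kB consensus, AP-1 (TGANTCA), C/EBP (TTGCNNAA) and the TATA box (TATAAA). The NF-kB consensus lay in 2 of the 9 windows, those of *Cxcl1* and *Cxcl2* (3.9% of all 32851 windows of that length), at the same 11 letters read on both strands. C/EBP lay in 3 (*S100a9*, *Lcn2* and the second start of *Spp1*; 9.56% of all), the TATA box letters in 3 (*S100a8*, *Il1b* and the first start of *Spp1*; 12.4%), and AP-1 in 0 (6.75%). Counted from the start site, TATAAA began at -30 in *S100a8* and -31 in *Il1b*, but at -211 in *Spp1*. No match overlapped one of another motif. The windows of 5 members are printed 5′ to 3′ on the gene's strand, with matches in capitals: the calprotectin pair and *Spp1*, which led the order of the arrays, and *Lcn2* and *Cxcl1*, whose residuals had lower correlations with *S100a9*.
S100a8 promoter (chr3:90668821-90669070, GRCm38.p6, plus strand): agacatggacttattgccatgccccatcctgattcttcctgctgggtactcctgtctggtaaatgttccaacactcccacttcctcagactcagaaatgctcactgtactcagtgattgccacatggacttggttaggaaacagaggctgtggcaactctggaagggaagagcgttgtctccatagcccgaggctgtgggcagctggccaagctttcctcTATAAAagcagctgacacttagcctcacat
S100a9 promoter (chr3:90695722-90695971, GRCm38.p6, minus strand): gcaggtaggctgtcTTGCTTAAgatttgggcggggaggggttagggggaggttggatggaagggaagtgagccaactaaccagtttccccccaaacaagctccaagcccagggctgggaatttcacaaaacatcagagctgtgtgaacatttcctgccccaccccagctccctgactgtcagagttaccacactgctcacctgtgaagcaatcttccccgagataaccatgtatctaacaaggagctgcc
Spp1 promoter (chr5:104434861-104435110, GRCm38.p6, plus strand): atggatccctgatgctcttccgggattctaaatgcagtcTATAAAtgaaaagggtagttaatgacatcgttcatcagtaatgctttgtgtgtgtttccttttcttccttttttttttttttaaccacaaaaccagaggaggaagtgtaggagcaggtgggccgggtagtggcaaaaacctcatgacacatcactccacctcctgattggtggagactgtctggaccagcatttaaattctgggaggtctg
Lcn2 promoter (chr2:32387740-32387989, GRCm38.p6, minus strand): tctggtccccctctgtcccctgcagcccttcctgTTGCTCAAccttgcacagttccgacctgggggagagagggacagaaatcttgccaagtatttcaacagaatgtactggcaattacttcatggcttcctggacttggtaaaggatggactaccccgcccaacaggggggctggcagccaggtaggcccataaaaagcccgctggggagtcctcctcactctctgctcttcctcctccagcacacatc
Cxcl1 promoter (chr5:90890995-90891244, GRCm38.p6, plus strand): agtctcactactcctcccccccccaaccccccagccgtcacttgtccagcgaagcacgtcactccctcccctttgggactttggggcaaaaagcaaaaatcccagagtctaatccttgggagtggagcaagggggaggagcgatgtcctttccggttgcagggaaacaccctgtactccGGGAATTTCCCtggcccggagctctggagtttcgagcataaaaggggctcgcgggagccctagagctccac
A match describes letters in this window and not a bound site. The shared array order of *S100a8* and *S100a9* goes with no motif searched here that both windows hold.

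**Figure D4:**
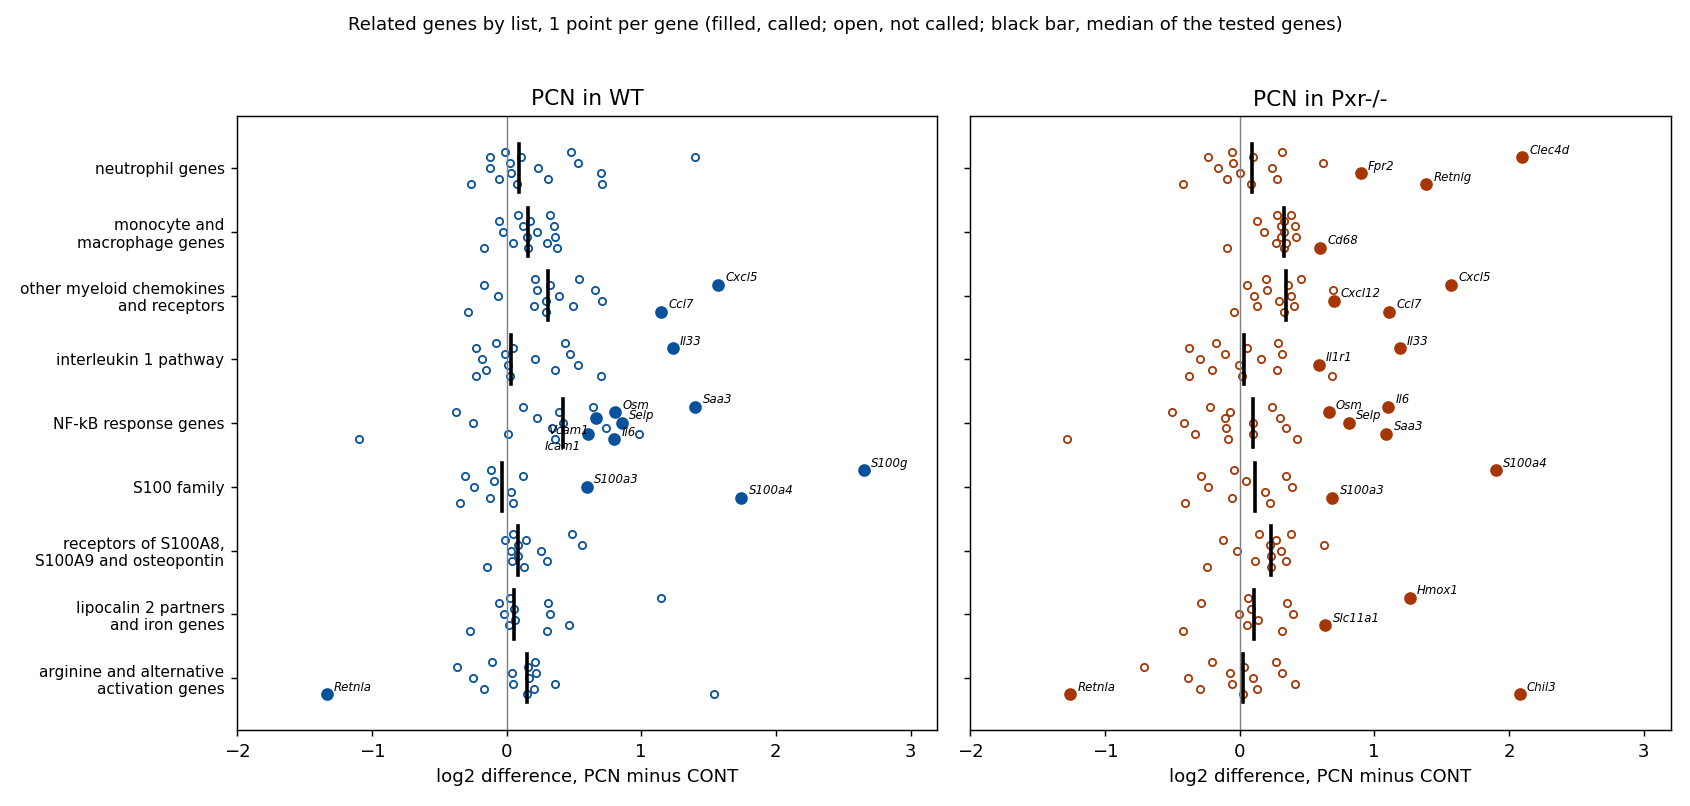
PCN minus CONT difference of the tested genes of 9 lists in WT (left) and *Pxr*-/- mice (right) on the log2 scale, 1 point per gene, with called genes filled and named and a black bar at each list's median. The medians of the chemokine list lie at 0.31 and 0.35 and that of the NF-kB response list at 0.42 in WT and 0.10 in *Pxr*-/- mice, and a few named genes such as *S100a4* and *Clec4d* stand far from their list.

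Related genes were then taken from lists that do not hold the members, with p-values adjusted over all probes. These lists and the cell type lists below were also chosen with earlier results of these data known. That limits what their p-values and counts show. Below, a gene said to rise or fall passed the call rule, and other genes may still have differed. Across all genes the median PCN difference was -0.02 in WT and 0.00 in *Pxr*-/- mice. In the S100 list, 3 of 12 tested genes rose in WT and 2 in *Pxr*-/- mice, with list medians of -0.03 and 0.12. That list also holds *S100pbp*, which encodes an S100-binding protein and not an S100 protein. *S100a4*, a calcium-binding protein of motile and mesenchymal cells, rose by 1.74 (SE 0.123, adjusted p = 4.1e-08) in WT and by 1.91 (SE 0.117, adjusted p = 3.41e-09) in *Pxr*-/- mice, with every PCN array above all CONT arrays of its genotype. *S100a3* rose by 0.60 and 0.69 (adjusted p = 0.0219 and 0.00493). *S100g*, the vitamin D-dependent calcium carrier calbindin of the enterocyte, rose by 2.65 in WT (adjusted p = 0.00526), and its *Pxr*-/- difference was 0.39 (adjusted p = 0.695). The difference between these effects was 2.27 and did not pass the test (adjusted p = 0.672).

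Of 16 tested chemokines for myeloid cells and their receptors, 2 rose in WT and 3 in *Pxr*-/- mice (medians 0.31 and 0.35). *Cxcl5*, another ligand of CXCR2, rose by 1.57 in both genotypes (adjusted p = 0.0162 and 0.0095), and *Ccl7*, which shares receptors with CCL2, by 1.15 and 1.11 (adjusted p = 0.00378 and 0.00409). *Cxcl12* rose by 0.70 in *Pxr*-/- mice (adjusted p = 0.00367), and its WT difference, 0.39, did not pass (limma adjusted p = 0.173). Another 7 genes of that list, among them *Cxcl3*, *Ppbp*, *Cxcr1* and the growth factors *Csf2* and *Csf3*, were too dim to test.

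In the interleukin 1 pathway 1 of 16 tested genes rose in WT and 2 in *Pxr*-/- mice (medians 0.04 and 0.03). *Il33*, an alarmin of the interleukin 1 family, rose by 1.23 (adjusted p = 5.57e-05) and 1.19 (adjusted p = 0.000103), and its receptor relative *Il1r1* by 0.59 in *Pxr*-/- mice (adjusted p = 0.0309). The WT difference of *Il1r1*, 0.43, did not pass (limma adjusted p = 0.231). Of 19 NF-kB response genes, 6 rose in WT and 4 in *Pxr*-/- mice (medians 0.42 and 0.10). *Il6*, an acute-phase cytokine, rose by 0.80 and 1.1 (adjusted p = 0.000329 and 1.51e-05), the serum amyloid gene *Saa3* by 1.40 and 1.09 (adjusted p = 0.0219 and 0.0429), and *Selp*, the P-selectin of activated endothelium, by 0.85 and 0.81 (adjusted p = 0.00207 and 0.00304). None of the 19 was called for the difference between the effects.

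Of 13 receptors of S100A8, S100A9 and osteopontin, 0 were called in either genotype, with medians of 0.09 and 0.23. Of 12 lipocalin 2 partners and iron genes, 0 were called in WT and 2 in *Pxr*-/- mice, *Hmox1* (1.26, adjusted p = 0.0155) and *Slc11a1* (0.64, adjusted p = 0.012), which encode heme oxygenase and a metal transporter of phagosomes. The WT difference of *Hmox1* was similar, 1.15, with all 5 PCN arrays above every CONT array, and did not pass (limma adjusted p = 0.0544). Among 15 arginine and alternative activation genes, *Chil3* rose in *Pxr*-/- mice by 2.08 (adjusted p = 0.00693), and *Retnla*, a resistin-like protein, fell by 1.34 in WT and by 1.26 in *Pxr*-/- mice (adjusted p = 0.0297 and 0.0215). In WT *Chil3* differed by 1.54, with all 5 PCN arrays above every CONT array, and did not pass (limma adjusted p = 0.081).

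The cells that usually carry these RNAs were examined through their markers. Of 16 tested neutrophil genes, 0 were called in WT and 3 in *Pxr*-/- mice: *Clec4d* (2.10, adjusted p = 0.0133), *Retnlg* (1.39, adjusted p = 0.0176) and *Fpr2* (0.90, adjusted p = 0.0464), a lectin receptor, a resistin-like protein and a formyl peptide receptor. Their WT differences were 1.40, 0.71 and 0.70, and did not pass. The list medians were 0.09 and 0.09, with 11 of 16 genes higher in WT and 10 in *Pxr*-/- mice. Of the others, *Fpr1* (0.48 and 0.62), *Il1r2* (0.53 and 0.28), *Mmp8* (0.24 and 0.24), *Ltf* (0.31 and -0.42), *Mmp9* (-0.05 and 0.31), *Trem1* (0.08 and -0.05), *Itgam* (-0.12 and -0.16), *Ly6g* (-0.26 and -0.23), *Elane* (-0.01 and -0.09), *Mpo* (0.11 and 0.08), *Camp* (0.03 and 0.10) and *Csf3r* (0.03 and -0.06) did not pass in either genotype, and *Ngp* and *Cxcr1* were well above background on 0 arrays. The mean log2 signal of the neutrophil list ran from 7.52 to 7.73 in WT CONT, 7.65 to 8.15 in WT PCN, 7.60 to 7.81 in *Pxr*-/- CONT and 7.76 to 8.24 in *Pxr*-/- PCN. Its 3 highest arrays were *Pxr*-/- PCN replicates 5 (8.24) and 1 (8.21) and WT PCN replicate 2 (8.15), the 3 that were also highest for the members.

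Of 15 monocyte and macrophage genes, 0 were called in WT and 1 in *Pxr*-/- mice, *Cd68* (0.60, adjusted p = 0.00716), a lysosomal protein, with 12 and 14 of the 15 higher with PCN and medians of 0.16 and 0.33. In WT *Cd68* differed by 0.38, with all 5 PCN arrays above every CONT array, and did not pass (limma adjusted p = 0.159). The list's mean signal ran from 10.25 to 10.58, 10.29 to 10.77, 10.10 to 10.72 and 10.55 to 10.80 in the 4 groups. In the wall of the gut, 2 of 8 fibroblast genes were called higher in WT and 4 in *Pxr*-/- mice. Called or not, 7 of the 8 were higher with PCN in WT and 8 in *Pxr*-/- mice (medians 0.34 and 0.63). Among those called in *Pxr*-/- mice were *Col1a1* (1.04), *Lum* (0.82) and *Col3a1* (0.81; limma adjusted p = 0.0151, 0.00483 and 0.0256). The list means ran from 11.61 to 11.97, 11.61 to 12.70, 11.33 to 12.07 and 12.04 to 12.70.

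Of 8 smooth muscle genes, 0 were called in WT and 3 in *Pxr*-/- mice (*Actg2* 0.67, *Cnn1* 0.67 and *Tagln* 0.59, limma adjusted p = 0.023, 0.0153 and 0.0181). Called or not, 7 of the 8 were higher with PCN in WT and 8 in *Pxr*-/- mice (medians 0.26 and 0.38). The list means ran from 14.26 to 14.63, 14.31 to 15.01, 14.33 to 14.79 and 14.51 to 15.39. Of 8 mesothelium genes, 2 were called higher in WT, *Msln* (0.99, limma adjusted p = 0.0133) and *Krt7* (0.66, adjusted p = 0.000468). *Msln* was also called in *Pxr*-/- mice (0.74, adjusted p = 0.0397). Called or not, 5 of the 8 were higher with PCN in WT and 6 in *Pxr*-/- mice (medians 0.02 and 0.18). The list means ran from 9.51 to 10.12, 9.87 to 10.25, 9.53 to 9.94 and 9.52 to 10.16. The B cell list, of which 0 of 8 genes were called, (medians 1.19 and 0.45) ran from 7.06 to 7.29 and from 7.0 to 7.35 in the CONT groups and reached 9.73 and 9.69 on WT PCN replicates 3 and 2 and 8.45 on *Pxr*-/- PCN replicate 1. With the wash batch left in, those arrays held both the lowest and some of the highest member levels with PCN. No T cell, adipose or enterocyte gene was called with PCN in either genotype. The part of these cell types in the members' differences was not tested.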

How the data were processed

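Ileal RNA of 23 mice was hybridised to single-colour Agilent arrays. The scanner files hold intensity values that the authors extracted with Agilent Feature Extraction 10.10.1.1 (submitters' processing notes), and the authors also deposited a table of normalized log2 values from which the wash batch had been removed. Here the median spot intensity, with no background subtracted, was log2-transformed and quantile-normalized with limma 3.58.1 (R 4.3.3). Testing was limited to the 37591 of 56605 probes that the scanner marked well above background on 50% or more of the arrays of some group. A linear model held the groups and the wash batch, with 5 contrasts, moderated limma tests and Benjamini-Hochberg adjustment over all probes. Calls required both an adjusted p no higher than 0.05 and a change of over 1.5-fold. A gene took the value of its brightest tested probe. Each array is a separate mouse, and the number of arrays limits the precision. The model was tested on simulated data.

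The members and gene lists were chosen with earlier results of these data known. Up to 3 called genes a list were named, by the size of their PCN difference in *Pxr*-/- mice, and all called genes where a list had 3 or fewer. For likeness, the 5 genes with the highest correlation of residuals were named for 4 members. The alternatives were the deposited table, normexp background correction, the processed signal, median centring, other filters on dim probes, no wash batch term, slide or replicate number as a block, array weights, only the groups compared, no fold threshold, each wash batch alone and leaving out each array. The exon or UTR that each probe lies in was not analysed here. The values of 1 gene of the neutrophil list are not reported here.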

Additional observations from a re-analysis of the deposited data

Results flagged for a closer look

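Among 52 sets of values (13 probes in 4 groups), 4 held an array that stood far from the others of its group by Dixon's test, which chance gives in about 1 in 20 sets. WT CONT replicate 5 was the highest of its group for *Spp1* (8.06) and for *Arg1* (7.75). WT CONT replicate 2 was the lowest of its group for *Cxcr2* (4.80), and WT PCN replicate 3 was the lowest of its group for *Cxcl2* (4.93). The last 2 values were not well above background.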

How the results depend on the processing

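The counts of members called with PCN were lowest within a single wash batch, which also holds fewer arrays, and the reason was not tested. In WT the count was 4 of 9, and 1 within wash batch 1 alone and 0 within wash batch 2 alone. In *Pxr*-/- mice it was 6, against 3 when every array had to be well above background, which leaves dim genes untested, 1 within wash batch 1 alone and 0 within wash batch 2 alone. Leaving out each array in turn gave 2 to 5 in WT, lowest without WT PCN replicate 2 and highest without *Pxr*-/- PCN replicate 5, and 6 to 7 in *Pxr*-/- mice. *S100a8* in WT was called in 11 of these 23 fits, and *Ccl2* and *Lcn2* in 23 of 23 in both genotypes. Of 14 alternatives, *S100a8* in WT was called in 9, and its limma call was lost in each batch alone, with normexp (adjusted p = 0.0771), with no filter (0.059) and with slide as a fixed block (0.0598). For the difference between the PCN effects and for both genotype comparisons, 0 members were called under every alternative run, and no value that had been called changed sign. The 11 PCN arrays stayed above the 12 CONT arrays in the deposited table, after median centring and after removal of the wash batch. Over all genes, 261 were called with PCN in *Pxr*-/- mice, against 3 in wash batch 1, 112 in wash batch 2 and 886 with no fold threshold. In WT the 186 became 41, 42 and 327.

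The replicate numbers did not pair the samples: the deviations of same-numbered arrays correlated from -0.242 to 0.351, over 0.1 in 4 of 22 pairs. With the replicate block, 4 members were called in WT and 6 in *Pxr*-/- mice, and 159 and 225 genes in all.

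*Cxcl2* and *Cxcr2* were limited by their signal over background. With the processed signal, the *Cxcr2* differences were 1.75 and 1.35, against 0.58 and 0.63. In WT these are measured differences from CONT arrays that were not well above background.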
